A study of Mus musculus with 18 samples.

Results

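The comparison described here set 3 libraries of Atf4 knockout CD8+ T cells against 3 libraries of Rosa26 control cells, all untreated, and covered every one of the 14695 measured genes. These 6 libraries are part of 18. They were picked by their labels alone: the genotype, the absence of drug and the replicate number. Atf4 knockout replicate 1 is named with an added R in the table, which the labels do not explain. The cells were primary mouse CD8+ T cells of spleen and lymph node. In every group, controls included, a locus had been targeted with CRISPR/Cas9: Atf4, Cebpg or Rosa26, a site commonly used as a neutral target. Untreated groups were cultured for 24 hours without halofuginone, a drug that blocks the charging of proline tRNA and that the study's other groups received. The sources used here give neither the strain and age of the mice, nor the share of cells that carried an edit, nor the origin of each replicate (mouse or culture), so p-values measure the spread among these libraries, which may be technical. The other knockout, Cebpg without drug, served as a second reference (3 libraries), and the same 2 genotypes with halofuginone gave values in libraries that the untreated comparison did not use.

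ATF4 is a basic leucine zipper transcription factor whose protein is made mainly when the kinases of the integrated stress response phosphorylate the initiation factor eIF2, since upstream reading frames in its mRNA hold back translation in unstressed cells. It binds DNA as a heterodimer, often with a C/EBP protein such as C/EBPγ (the product of Cebpg), at C/EBP-ATF response elements in genes for amino acid synthesis, amino acid uptake and tRNA charging. T cells that divide in culture use such enzymes heavily.

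The core of that response element, TGATGNAA, was looked for on both strands of RefSeq promoters (build GRCm38.p6, 250 bases before to 50 after a start site), which were available for 9800 of the measured genes. One of its forms, TTGCATCA read on the opposite strand, was also counted alone and overlaps it fully. The core lay in 264 of the 9800 genes (2.69%). It lay in 8 of 18 stress response targets with a promoter sequence (44.44%), in 5 of 13 cytosolic tRNA synthetases (38.46%), in 3 of 11 genes of asparagine, proline, alanine and glutamate metabolism (27.27%) and in 0 of 14 genes of serine and one-carbon metabolism. Among all genes lower in the Atf4 knockout 68 of 2477 held it (2.75%), and among those higher 48 of 1913 (2.51%), both near the share of all genes. The cyclic AMP response element TGACGTCA lay in 360 genes (3.67%), in 92 of the 2477 lower genes (3.71%) and in 73 of the 1913 higher genes (3.82%). The letters are a description and show no binding. Stretches of 6 promoters are printed because these genes were lower in the knockout and carry the core, which stands in capitals as read on the gene's own strand.
Asns, chr6:7693210-7693262, minus strand: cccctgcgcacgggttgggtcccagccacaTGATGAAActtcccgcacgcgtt
Atf3, chr1:191183406-191183473, minus strand: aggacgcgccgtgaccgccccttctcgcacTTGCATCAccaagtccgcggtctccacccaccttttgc
Chac1, chr2:119351019-119351086, plus strand: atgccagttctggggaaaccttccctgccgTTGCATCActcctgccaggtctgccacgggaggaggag
Pycr1, chr11:120643814-120643881, minus strand: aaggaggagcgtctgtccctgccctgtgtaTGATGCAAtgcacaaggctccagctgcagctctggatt
Aars1, chr8:111033700-111033767, plus strand: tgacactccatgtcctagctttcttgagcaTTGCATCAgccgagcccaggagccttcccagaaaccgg
Tars1, chr15:11399659-11399703, minus strand: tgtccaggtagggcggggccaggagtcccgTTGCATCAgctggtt
The core starts 23 bases before the start site in Asns and 15 bases before it in Tars1, and 193 bases before it in Chac1.

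The untreated libraries held 14.85 to 18.77 M counts (M, mega). Markers of CD8 T cells summed to 4317 to 4399 CPM (counts per M counts of the library, scaled by TMM) in Rosa26 and 4342 to 4523 CPM in the Atf4 knockout. B cell markers summed to 389 to 426 and 404 to 418 CPM, nearly all of it Ighm, and the 3 myeloid markers measured summed to at most 4.72 CPM. The 5 CD4 T cell markers measured summed to 874 to 922 CPM in Rosa26 and 743 to 812 CPM in the Atf4 knockout, without overlap; 3 of them rose and 2 fell. Log2 changes were 1.18 for Foxp3, 0.72 for Ctla4, 0.44 for Ikzf2, -0.41 for Il2ra and -0.84 for Zbtb7b. Il2ra and Ctla4 are also known from activated CD8 T cells. Genes of the annotation class TEC, tentative transcripts without experimental proof, took 0.10% to 0.133% of counts in Rosa26, 0.194% to 0.25% in the Atf4 knockout and 0.199% to 0.213% in the Cebpg knockout. The nuclear RNA Malat1 stood at 843 to 1141, 2007 to 2579 and 2001 to 2315 CPM in the same order. Both knockouts thus stood above Rosa26 without overlap in these measures, while the ranges of the knockouts overlapped each other. The part of this difference in the results against Rosa26 was not tested. Tests against the Cebpg knockout are therefore given as well. In bulk samples, fewer cells of a type and less RNA per cell cannot be told apart.

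Gene by gene, the Atf4 knockout differed from Rosa26 widely but mostly by small amounts. At an adjusted p under 0.05, 3098 of 14695 genes were higher (21.1%) and 3091 lower (21.0%), 6189 in all (42.1%). At least 2-fold changes were found for 805 genes (5.48%), of which 761 were higher (5.18%) and 44 lower (0.299%). The 2-fold counts moved with the settings, to 320 higher and 32 lower with all 18 libraries, to 214 and 22 among protein-coding genes alone, and to 100 and 5 among genes with a mean of at least 5 CPM. Of the 761, 195 were protein-coding and 278 were of class TEC. The median log2 fold change over the 829 TEC genes was 0.88 against Rosa26 and 0.06 against the Cebpg knockout. Over the 11390 protein-coding genes it was -0.02. With all 18 libraries in the fit, where treated groups with a wider spread enter the same variance, 1720 genes were higher and 2107 lower. Upper-quartile scaling gave 3814 higher and 2431 lower, so that 61.1% of calls were higher in place of 50.1%. Against the Cebpg knockout, 768 genes were higher in the Atf4 knockout (5.23%) and 1036 lower (7.05%); with all 18 libraries these were 193 and 295. The Cebpg knockout itself had 1826 genes higher than Rosa26 (12.4%) and 2190 lower (14.9%). The 768 genes higher in the Atf4 than in the Cebpg knockout became 510 without Cebpg knockout replicate 3 and 466 without Atf4 knockout replicate 2.

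The targeted gene was checked first. Atf4 mRNA stood at 275, 262 and 251 CPM in Rosa26 and at 299, 278 and 271 CPM in its own knockout. The ranges overlapped, and the change of 0.11 ± 0.0421 (log2 fold change ± SE, n = 3 against 3, here and below) had an adjusted p of 0.0416. That call ended without Rosa26 replicate 2 (0.0829) or 3 (0.238), without Atf4 knockout replicate 1 (0.291) or 2 (0.0665), and under other settings. Small insertions or deletions at a Cas9 cut need not change the level of an mRNA, so these counts do not check the genotype. Cebpg, the partner gene, was at 51.7, 54.2 and 51.8 CPM in Rosa26 and 59.2, 57.5 and 58.1 CPM in the knockout (0.15 ± 0.0588, adjusted p = 0.0382). This call too ended without Rosa26 replicate 1 (0.0967) or 3 (0.0988) or without Atf4 knockout replicate 1 (0.0999), 2 (0.062) or 3 (0.0739).

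Known targets of ATF4 and the stress response mostly stood lower. Of 24 measured, 13 fell (54.2%, against 21.0% of all genes) and 4 rose (16.7%, against 21.1%), with a median log2 fold change of -0.31 where that of all genes was 0.03. Asns, asparagine synthetase, whose promoter stretch is printed above, had 39.6, 43.2 and 43.3 CPM in Rosa26 and 19.8, 22.99 and 20.6 CPM in the knockout. Every knockout library lay far below every control, and Asns fell by 0.99 ± 0.0772 (adjusted p = 1.1e-13). Atf3, a stress-induced bZIP factor, fell by 1.30 from a low level of 1.86 CPM, and the alanine transaminase Gpt2 from 9.97 to 5.80 CPM (-0.78, adjusted p = 5.87e-05). Chac1, which breaks down glutathione, was at 3.17, 3.23 and 3.67 CPM in Rosa26 and 2.32, 1.89 and 1.44 CPM in the knockout (-0.83, adjusted p = 0.0182). Its call ended without Rosa26 replicate 3 (0.0595) or Atf4 knockout replicate 2 (0.0521) or 3 (0.0822).

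Trib3, a pseudokinase that dampens the response, changed less. It had 48.9, 51.3 and 50.4 CPM in Rosa26 and 44.8, 37.4 and 40.6 CPM in the knockout (-0.30 ± 0.0687, adjusted p = 0.00053), and with all 18 libraries the adjusted p was 0.0521. Some death-related members went the other way. Bbc3, which encodes the cell death protein PUMA and is also a p53 target, had 15.2, 15.2 and 12.9 CPM in Rosa26 and 27.3, 28.0 and 25.4 CPM in the knockout (0.90 ± 0.0922). Ddit3, which encodes CHOP, had 5.35, 9.05 and 5.04 against 13.7, 10.1 and 9.51 CPM (0.78, adjusted p = 0.0134), a call lost without Rosa26 replicate 1 (0.0581). Atf5, a related factor, was 0.28 (adjusted p = 0.0811, and 0.0244 without Rosa26 replicate 1), and Vldlr, under 1 CPM in each library, was -0.33 (adjusted p = 0.757). Against the Cebpg knockout, 10 of the 24 targets were lower and 1 higher.

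**Figure D1:**
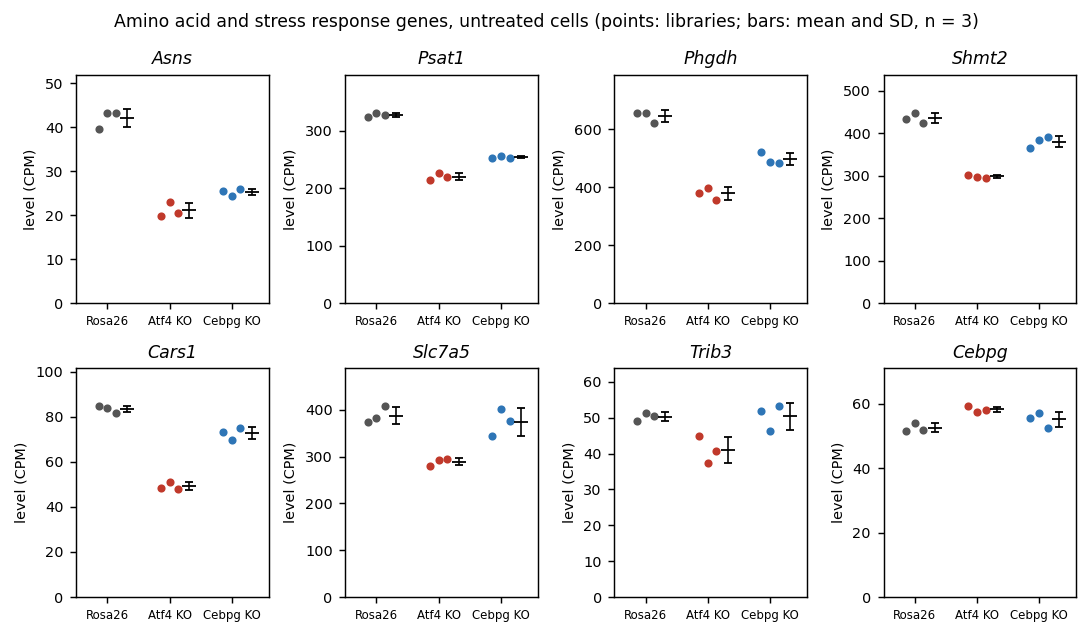
Levels in CPM (vertical axes, linear from 0) of 8 genes in the 3 untreated genotypes; each point is a library and each bar the mean with the SD of 3 libraries. Asns, Psat1, Phgdh, Shmt2, Cars1 and Slc7a5 lie below the Rosa26 libraries in each Atf4 knockout library, while Cebpg lies slightly above.

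Genes of serine and one-carbon metabolism fell in 15 of 18 cases and rose in 1 (median -0.49). Phgdh, the first enzyme of serine synthesis, had 656, 657 and 621 CPM in Rosa26 and 379, 399 and 357 CPM in the knockout (-0.77 ± 0.0421). The same step-down held for Psat1, the next enzyme, at 324, 331 and 327 against 214, 227 and 219 CPM (-0.57 ± 0.0385). Shmt2 and Mthfd2, which move one-carbon units through mitochondrial folate, fell by 0.55 and 0.49. Aldh1l2, a mitochondrial folate dehydrogenase, had the lowest value of the list, -1.97. It is not among the 12 lowest changes given below, which needed a call, at least 5 CPM and no overlap of libraries. Phgdh, Psat1, Shmt2 and Mthfd2 were each also lower than in the Cebpg knockout, by -0.39, -0.21, -0.35 and -0.17, and 11 of the 18 were.

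In asparagine, proline, alanine and glutamate metabolism 12 of 18 genes fell and 0 rose. Beside Asns and Gpt2, the proline enzyme gene Pycr1 fell by 1.15, Aldh18a1, which starts proline synthesis, by 0.41, and the mitochondrial aspartate transaminase Got2 by 0.40. Pycr1 is not among the 12 lowest changes given below, which needed at least 5 CPM and no overlap of libraries.

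All 20 cytosolic aminoacyl-tRNA synthetases fell (100%, against 21.0% of all genes), by 0.16 to 0.76, with a median of -0.36. These enzymes load amino acids onto tRNA. Cars1, the cysteinyl enzyme, had 84.5, 83.7 and 81.8 CPM in Rosa26 and 48.2, 51.1 and 48.1 CPM in the knockout (-0.76 ± 0.0559). Yars1, the tyrosyl enzyme, fell by 0.62 and Tars1, the threonyl enzyme whose promoter stretch is printed above, by 0.56. In the Cebpg knockout 14 of the 20 fell, and 12 were lower in the Atf4 than in the Cebpg knockout. Their mitochondrial counterparts did not share this: of 17, 7 rose and 2 fell, with Wars2 higher by 0.66, Fars2 higher by 0.51 and Yars2 lower by -0.37. With all 18 libraries or by DESeq2, 4 of them rose.

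Of 19 amino acid transporters 9 fell (47.4%, against 21.0% of all genes) and 3 rose (15.8%, below the 21.1% of all genes). Slc7a5, the light chain of the large neutral amino acid carrier, had 374, 382 and 407 CPM in Rosa26 and 281, 292 and 295 CPM in the knockout (-0.42 ± 0.0454). Its heavy chain Slc3a2 fell by 0.26 (adjusted p = 4.51e-06; 0.0503 with all 18 libraries). The glycine carrier Slc6a9 was at 2.06, 2.82 and 2.19 against 1.47, 1.09 and 1.24 CPM (-0.89, adjusted p = 0.0114). That call ended without Rosa26 replicate 2 (0.0659) or Atf4 knockout replicate 2 (0.0508). Slc7a5, Slc3a2 and Slc6a9 were also lower than in the Cebpg knockout, where their own changes from Rosa26, -0.05, -0.06 and 0.06, did not pass. Slc38a9, a lysosomal arginine sensor, rose by 0.95 and the neutral amino acid carrier Slc43a2 by 0.42.

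Regulators of the same response were split. Of 15 genes for eIF2 kinases, eIF2 and its exchange factor and phosphatase subunits, 10 fell (66.7%, against 21.0% of all genes) and 1 rose (6.67%). The gene that rose was Eif2ak3, which encodes the kinase PERK: 42.6, 40.7 and 39.4 CPM in Rosa26 against 59.9, 61.1 and 58.3 CPM (0.55 ± 0.0613), and it was also higher than in the Cebpg knockout (0.40). Eif2b1, a subunit of the exchange factor, fell by 0.45 and the phosphatase subunit Ppp1cc by 0.32. Of these 15, 8 fell in the Cebpg knockout too, Ppp1cc by 0.31. Lower in the Atf4 than in the Cebpg knockout were 2 of the 15. Of 35 bZIP genes 12 fell (34.3%), among them Batf (-0.80), a factor of activated T cells, and Cebpb (-0.59), and 8 rose (22.9%, near the 21.1% of all genes), among them Bach2 (0.82). Of 21 sestrins and other regulators of the growth kinase mTORC1, 7 rose (33.3%, and 4 genes with all 18 libraries), Rptor by 0.39, and 5 fell (23.8%, near the 21.0% of all genes); Sesn2, a leucine sensor and ATF4 target, fell by 0.44 and the translation repressor Eif4ebp1 by 0.48. Of 16 glutathione and thioredoxin genes 10 fell and 0 rose, with glutathione reductase Gsr at -0.53, thioredoxin reductase Txnrd1 at -0.43 and thioredoxin Txn1 at -0.50.

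**Figure D2:**
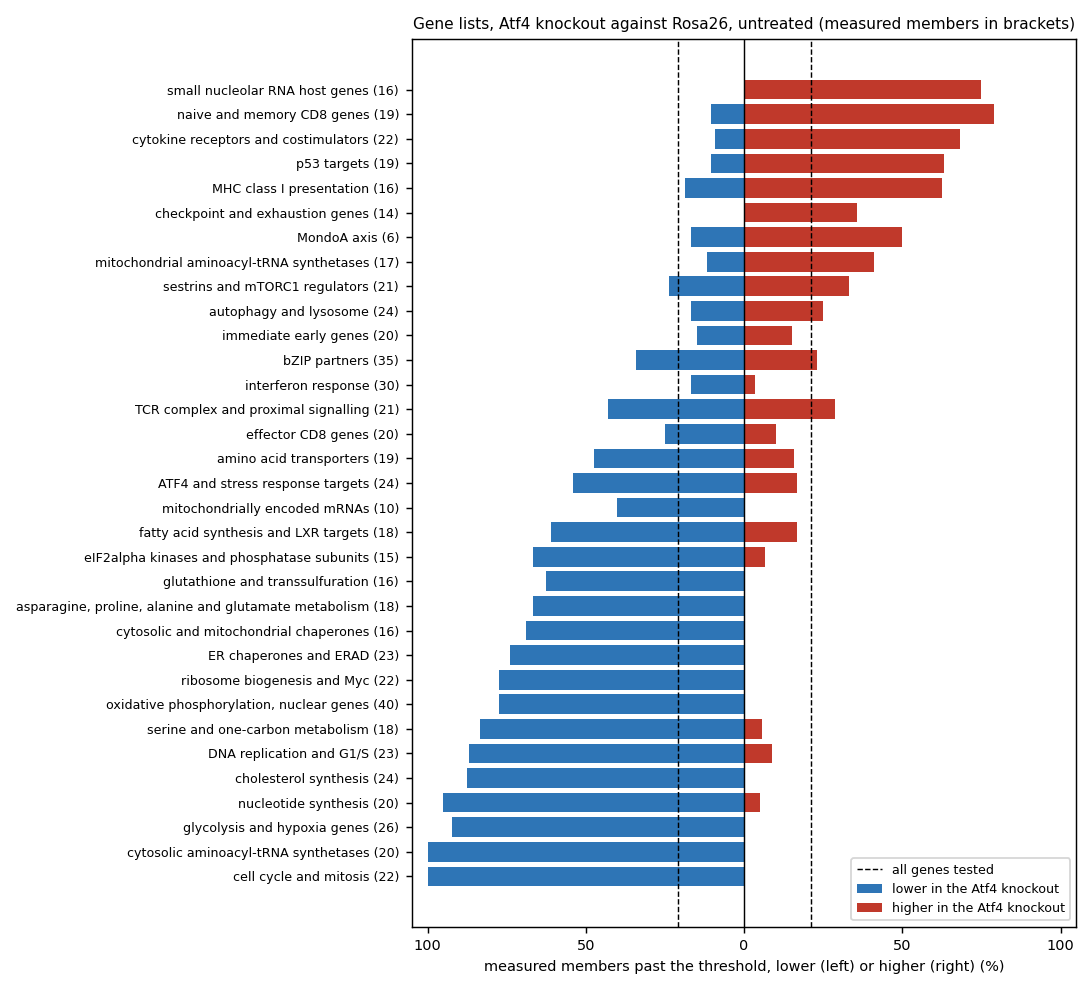
Share of measured members (horizontal axis, %) past the threshold in each gene list, lower in the Atf4 knockout to the left and higher to the right, with the share among all genes as dashed lines at 21.0% and 21.1%. All members of the cell cycle and cytosolic synthetase lists were lower, and 15 of 19 naive and memory genes were higher.

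Cholesterol synthesis genes, which are under control of the factor SREBP2, numbered 21 lower and 0 higher of 24, with a median of -0.61. Insig1, which retains the SREBP complex in the endoplasmic reticulum, had 93.3, 94.9 and 94.6 CPM in Rosa26 and 39.8, 43.6 and 44.8 CPM in the knockout (-1.14 ± 0.0598, adjusted p = 1.41e-18). Hmgcs1, which commits acetyl units to the pathway, stood at 220.2, 223 and 221 against 102, 118 and 117 CPM (-0.98 ± 0.0483). The isomerase gene Idi1 fell by 1.05. In the Cebpg knockout 18 of the 24 fell with a median of -0.31, and 16 were lower in the Atf4 than in the Cebpg knockout. Genes of fatty acid synthesis and LXR targets fell in 11 of 18 cases (61.1%) and rose in 3 (16.7%, below the 21.1% of all genes). Scd1, a fatty acid desaturase, had the lowest change among named genes: 8.11, 8.28 and 8.66 CPM against 2.32, 1.95 and 1.97 CPM (-2.004 ± 0.188). Its relatives Fads2 and Scd2 fell by 1.09 and 0.78, fatty acid synthase Fasn by 0.63, Acly, which supplies acetyl-CoA, by 0.53, and the acyl-CoA synthetase Acsl3 by 1.07.

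Genes of glycolysis and the hypoxia response fell in 24 of 26 cases and rose in 0 (median -0.54). Tpi1, a core glycolytic isomerase, had 572, 568 and 564 CPM in Rosa26 and 323, 313 and 304 CPM in the knockout (-0.86 ± 0.0389, adjusted p = 4.16e-20). Pgk1 and Pkm, the steps that yield ATP, fell by 0.80 and 0.71, and the lactate exporter Slc16a3 by 1.13, from 61.1 to 27.9 CPM. Against the Cebpg knockout 18 of the 26 were lower and 0 higher. Nuclear genes of oxidative phosphorylation fell in 31 of 40 cases by smaller amounts (median -0.31), with ATP synthase subunits Atp5f1b and Atp5f1a at -0.43 and -0.36 and Uqcrfs1, of complex III, at -0.41; with all 18 libraries 14 of the 40 fell. Of these 40, 26 fell in the Cebpg knockout too and 7 were lower in the Atf4 than in the Cebpg knockout. Among 10 mitochondrially encoded mRNAs 4 fell, mt-Nd1 by 0.36, mt-Nd2 by 0.29 and mt-Cytb by 0.23. Here the knockouts differed: 3 rose and 0 fell in the Cebpg knockout, and 7 were lower in the Atf4 than in the Cebpg knockout. With all 18 libraries 1 of the 10 fell, and the adjusted p was 0.0615 for mt-Nd1 and 0.222 for mt-Cytb.

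All 22 genes of the cell cycle and mitosis fell, by 0.46 to 0.83, with a median of -0.63. Ccnb1, the mitotic cyclin B1, had 257, 254 and 243 CPM in Rosa26 and 146, 144 and 135 CPM in the knockout (-0.83 ± 0.0418). Ccnb2 fell by 0.80 and cyclin A2, Ccna2, by 0.72. Mki67, the proliferation marker, had 1349, 1322 and 1341 against 935, 978 and 995 CPM (-0.46 ± 0.0414). In the Cebpg knockout all 22 fell as well, with a median of -0.32, and all 22 were lower in the Atf4 than in the Cebpg knockout. In DNA replication and the entry to S phase 20 of 23 fell, the flap nuclease Fen1 by 0.64, the helicase subunit Mcm3 by 0.50 and the loader Cdc6 by 0.48, and 2 rose. Of 20 genes of nucleotide synthesis 19 fell and 1 rose; Rrm2 and Rrm1, the subunits of ribonucleotide reductase, fell by 0.60 and 0.58, and Umps, of pyrimidine synthesis, by 0.57.

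**Figure D3:**
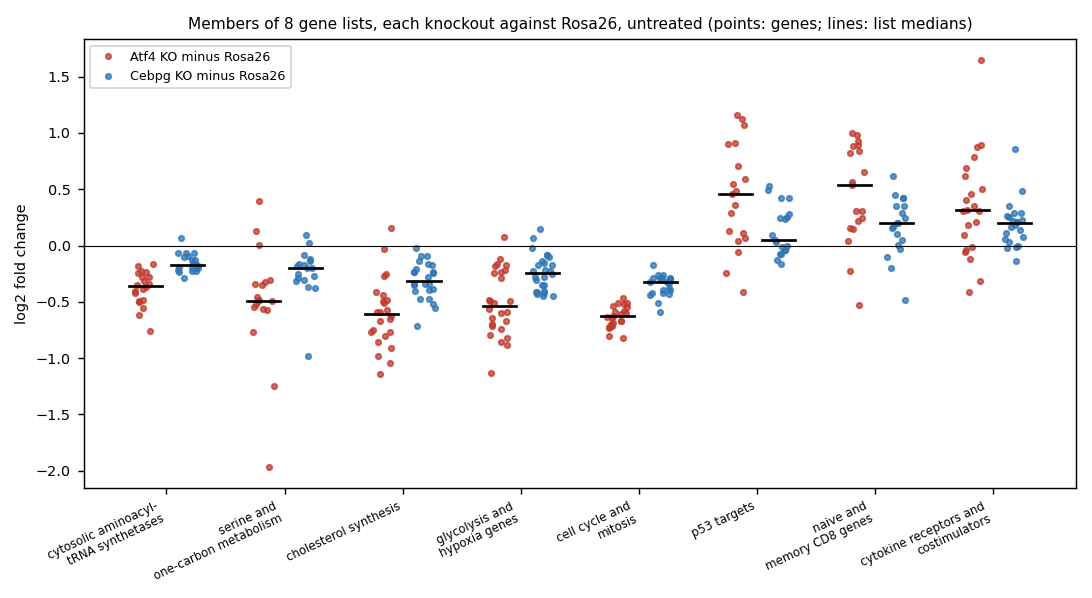
Log2 fold change (vertical axis) of every measured member of 8 lists in the Atf4 knockout (red) and the Cebpg knockout (blue), both against the same 3 Rosa26 libraries; black lines are list medians. In the Atf4 knockout the medians run from -0.63 for cell cycle genes to 0.54 for naive and memory genes; in the Cebpg knockout they lie nearer 0, at -0.32 and 0.20 for the same lists.

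Protein folding and ribosome genes stood lower by moderate amounts. Of 23 chaperones and degradation factors of the endoplasmic reticulum 17 fell and 0 rose, Sdf2l1 by 0.64, Manf by 0.41 and the chaperone Hsp90b1 by 0.31. In the Cebpg knockout 4 of the 23 fell, a share near the 14.9% of all genes there. Of 16 cytosolic and mitochondrial chaperones 11 fell, Hspd1 from 704 to 485 CPM (-0.54), Hspa8 by 0.52 and Hsp90aa1 by 0.50. Of 22 genes of ribosome biogenesis and Myc 17 fell, the nucleolar factors Nolc1 by 0.47, Bop1 by 0.32 and Nop2 by 0.31. Of these 22, 14 fell in the Cebpg knockout too. Only 2 were lower in the Atf4 than in the Cebpg knockout, a share near the 7.05% of all genes. Host genes of small nucleolar RNAs, whose spliced transcripts are often degraded during translation, went the other way. In the Atf4 knockout 12 of 16 measured rose and 0 fell. Snhg12 was higher by 1.28 and Gas5 by 1.12. Against the Cebpg knockout 7 of the 16 were higher and 0 lower. With all 18 libraries 6 rose. This list was drawn up after values were seen.

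Targets of p53, the damage-responsive tumour suppressor, rose in 12 of 19 cases (63.2%, against 21.1% of all genes) and 2 fell, with a median of 0.46. Zmat3, an RNA-binding target, had 41.6, 45.6 and 42.5 CPM in Rosa26 and 73.1, 83.9 and 86.4 CPM in the knockout (0.91 ± 0.0626). Trp53inp1 rose by 0.70, and the cyclin G1 gene Ccng1 by 0.54, from 203 to 296 CPM. The death receptor gene Fas rose by 1.07 and Phlda3 by 1.16, while Mdm2, the p53 inhibitor, was 0.07 and not past the threshold. In the Cebpg knockout 7 rose with a median of 0.05, and 11 were higher in the Atf4 than in the Cebpg knockout. Among 6 genes around the glucose sensor MondoA, 3 rose. Txnip, its best-known target and a brake on glucose uptake, had 172, 198 and 177 CPM in Rosa26 and 369, 371 and 342 CPM in the knockout (0.99 ± 0.0454). Arrdc4, a relative with the same regulation, rose by 1.74, and Mlx, the partner of MondoA, fell by 0.35. Without Rosa26 replicate 3, 5 of the 6 rose.

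Genes of naive and memory CD8 T cells rose in 15 of 19 cases (78.9%) and 2 fell, with a median of 0.54. S1pr1, the receptor with which T cells leave lymphoid tissue, had 38.5, 36.8 and 32.4 CPM in Rosa26 and 69.2, 74.2 and 69.3 CPM in the knockout (0.98 ± 0.0648). Ccr7, the chemokine receptor that guides T cells into lymph nodes, stood at 136, 122 and 131 against 239, 236 and 224 CPM (0.84 ± 0.0436). Klf2, a transcription factor that drives S1pr1, rose by 0.88 and the interleukin 7 receptor gene Il7r by 0.89. Tcf7, which encodes the memory factor TCF1, was 0.04 and not past the threshold (adjusted p = 0.456). Upper-quartile scaling gave it an adjusted p of 0.0478. In the Cebpg knockout 11 of the 19 rose, at a median of 0.20, and 15 were higher in the Atf4 than in the Cebpg knockout.

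Effector genes mostly did not pass the test: of 20, 5 fell (25%, near the 21.0% of all genes) and 2 rose. Among single members, the transcription factor gene Eomes had 80.8, 83.9 and 84.1 CPM in Rosa26 and 50.2, 46.3 and 54.5 CPM in the knockout (-0.72 ± 0.0616). Zfp683, which encodes Hobit, a factor of tissue-resident cells, fell by 0.86 and Id2, an inhibitor of E proteins, by 0.66. Gzmb, the cytotoxic protease granzyme B, had 1273, 1250 and 1242 CPM against 1066, 1085 and 1094 CPM, so the groups were apart by a small margin (-0.21 ± 0.0371). The cytokine gene Ifng was at 0.47, 1.06 and 0.384 CPM against 0, 0.572 and 0.131 CPM. Its change of -1.36 had an adjusted p of 0.133, and 0.0122 without Atf4 knockout replicate 2. Of 14 checkpoint and exhaustion genes 5 rose and 0 fell, the inhibitory receptors Ctla4 by 0.72, Btla by 0.42 and Vsir by 0.31.

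**Figure D4:**
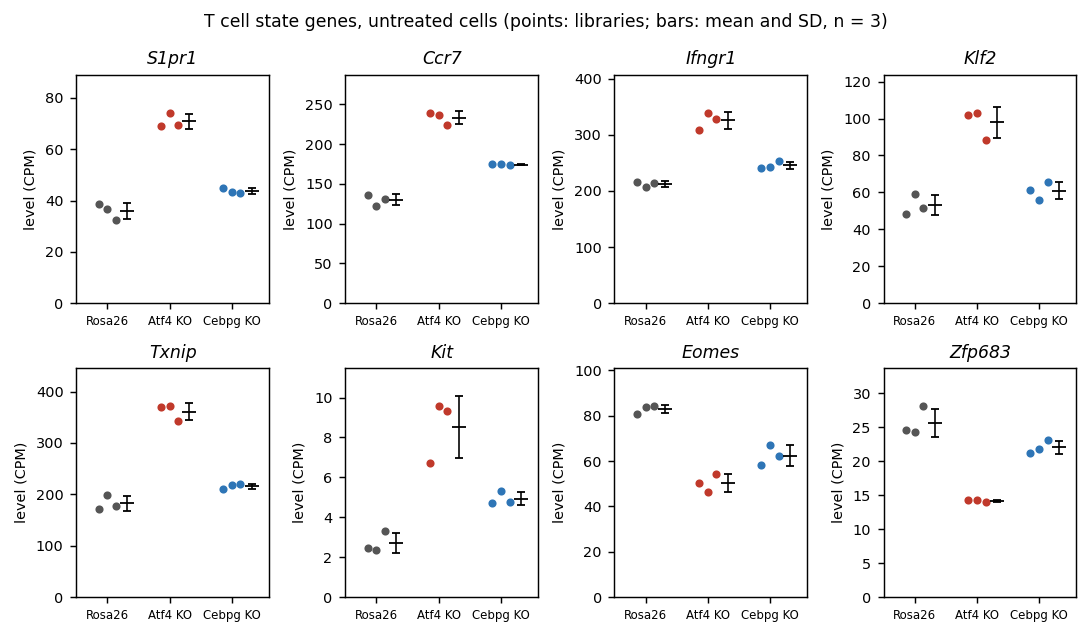
Levels in CPM (vertical axes, linear from 0) of 8 genes of T cell state, metabolism or signalling in the 3 untreated genotypes; each point is a library and each bar the mean with the SD of 3 libraries. S1pr1, Ccr7, Ifngr1, Klf2, Txnip and Kit lie above Rosa26 in each Atf4 knockout library, Eomes and Zfp683 below it, and the Cebpg knockout means lie between.

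Cytokine receptors and costimulators rose in 15 of 22 cases and fell in 2. Ifngr1, a chain of the interferon gamma receptor, had 216, 207 and 213 CPM in Rosa26 and 309, 339 and 328 CPM in the knockout (0.62 ± 0.0408). Tnfrsf18, the costimulator GITR, rose by 0.69, Il21r by 0.46 and the stem cell factor receptor gene Kit by 1.65, from 2.70 to 8.52 CPM. Il2ra, the high-affinity chain of the interleukin 2 receptor, fell by 0.41. Of 16 genes of MHC class I presentation 10 rose and 3 fell, with class I genes H2-Q4, H2-Q6 and H2-T23 higher by 0.62, 0.65 and 0.45. Class I genes form a family of related sequences, some of which may share reads. With all 18 libraries 6 of the 16 rose. Signalling genes of the T cell receptor were split, 6 higher (28.6%, against 21.1% of all genes) and 9 lower (42.9%, against 21.0%) of 21. The kinases Prkcq and Zap70 stood at 0.49 and -0.40, and Csk, which restrains Lck, at -0.31. Immediate early genes numbered 3 higher and 3 lower of 20; the activation factor Irf4 fell by 0.43 and the inhibitor gene Nfkbia rose by 0.48. Of 30 interferon response genes 5 fell, Oas3 by 0.48, Ifi47 by 0.43 and Isg20 by 0.51, and 1 rose. Of 24 autophagy and lysosome genes 6 rose, the cathepsin gene Ctss by 0.48 and the receptor gene Nbr1 by 0.45, and 4 fell, Gabarapl1 by 0.37. The shares in these last 3 lists lay near or below those of all genes, 21.1% higher and 21.0% lower.

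The 12 highest changes were taken among genes with at least 5 CPM and no overlap of libraries between the groups, which 49.7% of all genes at any level showed. After Cacna1i and Arrdc4 they were Igha, an immunoglobulin heavy chain gene (1.68), the laminin gene Lama5 (1.66), Kit, Tcp11l2 (1.60), the collagen gene Col20a1 (1.47), the cadherin gene Cdh1 (1.46), the small nuclear RNA Rn7sk (1.40), the noncoding RNA Lncpint (1.35), Zfr2 (1.34) and Hmcn2 (1.29). Lncpint did not pass with all 18 libraries (adjusted p = 0.205). Cdh1, for the adhesion protein E-cadherin, had 3.88, 5.05 and 3.56 CPM in Rosa26 and 12.3, 11.6 and 10.4 CPM in the knockout. Lama5, Col20a1, Cdh1, Kit and Tcp11l2 were also higher than in the Cebpg knockout, by 0.50, 0.69, 0.46, 0.79 and 1.01. Rn7sk and Lncpint rose in both knockouts and did not differ between them past the threshold (0.14 and 0.04), as the TEC class and Malat1 stood. Igha and Zfr2 also rose in both knockouts. Their differences between the knockouts, 0.47 and 0.48, did not pass (adjusted p = 0.0542 and 0.196). The 12 lowest were Scd1, the histone gene H2ac8 (-1.18, a near-identical copy of others), Insig1, Slc16a3, Fads2, Acsl3, Idi1, the thyroid hormone receptor gene Thrb (-1.04), Asns, the creatine kinase gene Ckb (-0.99), Hmgcs1 and Hemgn (-0.98).

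Among genes with at least 5 CPM and no overlap between the groups, the highest change belonged to a neighbour of the targeted gene. Cacna1i, which encodes a T-type calcium channel, lies 2 measured genes away from Atf4 on chromosome 15, with Rps19bp1 between them. Its raw counts were 4, 7 and 0 in Rosa26, 1, 7 and 0 in the Cebpg knockout and 141, 146 and 136 in the Atf4 knockout (5.31 ± 0.415, adjusted p = 5.17e-11). The library groups were far apart, and the fold is imprecise since the control counts are few. With halofuginone Cacna1i had 0 counts in each Rosa26 and each Cebpg knockout library and 217, 335 and 213 counts in the Atf4 knockout. Of the 20 nearest measured genes, 10 on each side, 8 passed the threshold, a share near the 42.1% of all genes. These 8 were Rpl3, Snord43, Syngr1, Rps19bp1, Cacna1i, Gm49553, Tnrc6b and Adsl. Rps19bp1 fell by 0.46 (23.7, 24.0 and 24.8 CPM against 16.7, 18.8 and 17.1 CPM) and did not differ from the Cebpg knockout past the threshold (-0.21, adjusted p = 0.136). Of the 8, Cacna1i was the one that differed from the Cebpg knockout, where it was higher by 5.71 (adjusted p = 9.49e-10). Calls of Rpl3 and Syngr1 ended without single libraries, Rpl3 without Rosa26 replicate 2 (0.205) or Atf4 knockout replicate 2 (0.0619) or 3 (0.128), Syngr1 without Rosa26 replicate 2 (0.0524) or 3 (0.0859) or Atf4 knockout replicate 1 (0.0888) or 3 (0.0986). With all 18 libraries the adjusted p was 0.128 for Snord43, 0.254 for Gm49553 and 0.0761 for Tnrc6b, so those calls ended there.

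**Figure D5:**
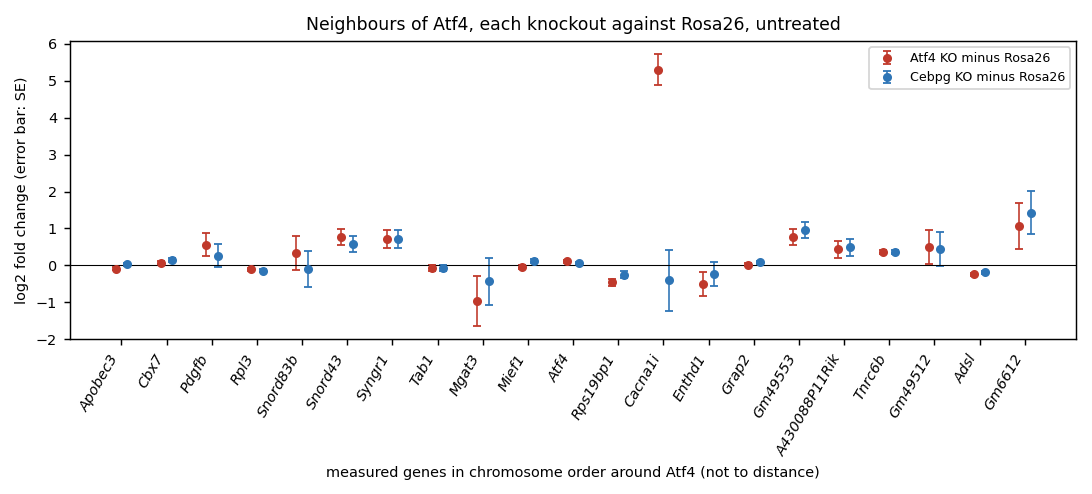
Log2 fold change (vertical axis; error bar, SE) of the 20 nearest measured genes around Atf4 in chromosome order, in the Atf4 knockout (red) and the Cebpg knockout (blue) against Rosa26. Cacna1i stands at 5.31 in the Atf4 knockout, and none of the other 7 neighbours past the threshold there differed from the Cebpg knockout past it.

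The same genotypes were compared in 6 libraries with halofuginone, none of which entered the untreated test. There 1464 genes were higher in the Atf4 knockout (9.96%) and 1619 lower (11.0%), with counts of all calls from 2032 without Atf4 knockout replicate 1 to 4132 without replicate 3, a library with a TEC share of 0.0735% against 0.216% and 0.302% in its group. Rosa26 replicate 2 with the drug also stood apart, with a TEC share of 0.0542% against 0.189% and 0.225%, and without it there were 2417 calls. Of the 3098 genes higher untreated, 2560 had a positive change with the drug (82.6%, where 53.3% of all genes did), and 799 passed the threshold as higher. Of the 3091 genes lower untreated, 2624 had a negative change (84.9%, where 46.7% of all genes did), and 1217 passed as lower. Another 81 genes passed in the opposite direction. Of the 761 genes higher by at least 2-fold untreated 66 passed as higher with the drug (8.67%, below the 9.96% of all genes). Of the 44 lower ones 10 passed as lower (22.7%, against 11.0% of all genes). By direction alone, 619 of the 761 had a positive change with the drug (81.3%, against 53.3% of all genes). A negative change was found for 32 of the 44 (72.7%, against 46.7% of all genes). By list, 19 of 24 stress response targets, 18 of 20 cytosolic synthetases, 21 of 22 cell cycle genes and 18 of 26 glycolysis and hypoxia genes were lower in the knockout with the drug. Other lists differed from their untreated counts. Fatty acid synthesis and LXR targets had 7 higher and 5 lower of 18, with a median of 0.04 against -0.32 untreated. Oxidative phosphorylation had 10 of 40 lower, but its median was -0.36 against -0.31 untreated, so the change was not smaller. Mitochondrial synthetases had 1 higher and 2 lower of 17, shares near or below those of all genes with the drug. Fewer of all genes passed with the drug, 21.0% against 42.1% untreated. Of the naive and memory genes 13 of 19 were higher, and of the p53 targets 9 of 19. In a fit of all 18 libraries the knockout effect itself differed between treated and untreated cells for 943 genes (6.42%).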

How the data were processed

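Directional (dUTP) libraries were made from DNase-treated poly-A RNA, per the labels' protocols. Per the submitters' processing notes, FastQC, MultiQC, Trimmomatic, STAR, HTSeq and edgeR were used with GRCm39; versions, settings and the strand option were not given in the sources used here, so overlapping antisense genes are uncertain. The authors deposited raw counts per gene, per the file headers. The table held 14695 genes, all kept (each passes filterByExpr at a minimum count of 10). From an annotation of GRCm38, 431 of 449 blank names were filled by identifier and 14335 genes got a type. Some genes are not reported here.

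The 9 untreated libraries were fitted with 1 term per genotype in edgeR 4.0.16 (R 4.3.3; TMM scaling, robust quasi-likelihood F test, Benjamini-Hochberg over all genes, threshold 0.05). The treated libraries have a wider spread and had their own fit. CPM are TMM-scaled; SE is the log2 fold change divided by the root of F. Differences between the untreated and treated effect came from all 18 libraries. DESeq2 1.42.0, other scaling, CPM filters, other sets of libraries and leaving out each library were alternatives. The test was tested on simulated data. No 2 libraries were duplicates (chi-square per degree of freedom 2.01 to 6.65 within untreated groups). Replicate numbers were not used to pair libraries in the main fit, and the labels do not say whether equal numbers share an origin.

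Members and lists were chosen with earlier results of these data known, so lists have counts and medians but no test. Named genes are Atf4, Cebpg, a panel of stress, amino acid and T cell genes, the 12 highest and 12 lowest changes (at least 5 CPM in a group, no overlap, no predicted name), the 3 smallest p of each list and the 10 measured neighbours of Atf4 on each side. Atf3, Pycr1, Aldh1l2, Fas, Phlda3, Mdm2, Il7r, Il2ra, Ikzf2, Gas5, Snhg12, Foxp3, Zbtb7b, Ighm, Aars1 and Malat1 were named after their values were seen. Promoters are RefSeq, matched by symbol or Entrez identifier. Symbols absent from the table are not analysed here.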

Additional observations from a re-analysis of the deposited data

Results flagged for a closer look

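For 44 genes (Atf4, Cebpg, the panel and the 12 highest and 12 lowest changes), the knockout effect with halofuginone was set against the effect untreated. In a fit of all 18 libraries by edgeR, 20 of the 44 differed past the threshold (adjusted over all genes). Of all 14695 genes 943 did (6.42%). A negative value means that the Atf4 knockout stood lower relative to Rosa26 with the drug than without it. Among stress and amino acid genes the differences were -1.002 for Asns, -1.331 for Trib3, -1.09 for Ddit3, -1.816 for Atf5, -0.5418 for Cebpg, -0.9288 for Psat1, -0.665 for Shmt2, -0.7684 for Mthfd2, -1.229 for Gpt2 and -0.597 for Sesn2. Transporters gave -1.361 for Slc6a9, -0.7761 for Slc7a5 and -0.4993 for Slc3a2. Of these 13 genes, Ddit3, Cebpg and Atf5 had a positive value untreated and a negative one with the drug. The untreated value of Atf5 (adjusted p = 0.0811) and that of Ddit3 with the drug (adjusted p = 0.166) did not pass the threshold. The untreated call of Cebpg ended without single libraries, as given above. The memory factor gene Tcf7 gave 0.6338. The remaining genes were picked for their extreme untreated changes, and the test uses the same untreated libraries, so the choice itself favours a smaller change with the drug; their values, and the count of 20 as far as it holds them, are a description. Those among the highest gave -1.722 for Lama5, -0.918 for Tcp11l2 and -1.331 for Zfr2; Lama5 and Zfr2 stood at -0.04 and 0.02 with the drug. Lipid genes among the lowest gave 2.234 for Scd1, 0.819 for Insig1 and 1.467 for Acsl3, with values under the drug of 0.24, -0.31 and 0.41.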

How the results depend on the processing

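Results were recomputed with other sets of libraries, other scaling, DESeq2, filters on low levels and without each library in turn; a fit of protein-coding genes alone was chosen after seeing the data. Calls against Rosa26 numbered 3827 with all 18 libraries (1720 higher), 5251 among protein-coding genes (2632 higher, 2619 lower) and 5294 to 5904 without single libraries. With a mean of at least 5 CPM, 100 higher and 5 lower genes changed by at least 2-fold, in place of 761 and 44. The counts of all calls fell less, from 3098 higher and 3091 lower to 2645 and 2524. The part of genes at low levels in this drop was not tested. Against the Cebpg knockout there were 488 calls with all 18 libraries, 193 higher and 295 lower, and 466 to 640 higher without single libraries. With halofuginone the calls ran from 2032 to 4132, the higher ones from 944 to 1809, without single libraries. With all 18 libraries the list counts were 4 mitochondrial synthetases higher (also 4 by DESeq2), 4 sestrin and mTORC1 genes higher, 14 oxidative phosphorylation genes lower, 1 mitochondrial mRNA lower, 6 MHC class I genes higher, 6 small nucleolar RNA host genes higher and 1 CD8 marker lower. The CD8 markers lower were 2, not 4, with upper-quartile scaling, at least 5 CPM or protein-coding genes alone, and 2 to 4 without single libraries (2 without Rosa26 replicate 3). The MondoA genes higher were 5 with upper-quartile scaling, at least 1 CPM or protein-coding genes alone, and 3 to 5 without single libraries. With at least 5 CPM 1 immediate early gene and 0 B cell markers were lower, with upper-quartile scaling 3 interferon genes were lower, and among protein-coding genes 1 small nucleolar RNA host gene was higher, as most of them are noncoding. Vldlr ran from -0.98 to 0.75 without single libraries, with 0.75 without Rosa26 replicate 2 and 0.08 without Atf4 knockout replicate 3. The causes were not tested unless given. Same-numbered Rosa26 and Atf4 knockout libraries correlated at 0.0313, 0.0289 and 0.0947 in their deviations. Rosa26 replicates 1 and 3 correlated best with their own number, and replicate 2 with another. With the replicate block 6532 genes passed in place of 6189, and 2246 in place of 1804 against the Cebpg knockout. These values do not settle whether the libraries are paired. Counts of a few reads, such as those of Cacna1i, Ifng and Vldlr in controls, limit the precision of their folds.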
